A study of Homo sapiens with 2 samples.

Results

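The genes described here are 10 core genes of the Hedgehog pathway: DISP1, PTCH1, CDON, BOC, HHIP, SMO, SUFU, GLI1, GLI2 and GLI3. They were chosen by name, out of 19775 genes that the array's annotation names, and each is read by every probe set (a set of short DNA probes against 1 transcript region) whose only gene symbol is that gene, 28 probe sets in all. The cells were hTERT-RPE1, a telomerase-immortalised human line of retinal pigment epithelium that can grow a primary cilium. In the control group they received a control oligo, and in the other group an oligo of miR-129-3p, named as overexpression in the labels. Both groups were grown in DMEM/F-12 with 10% FBS and hygromycin B and transfected with a lipid reagent (RNAiMAX), and total RNA was taken at 72 h. Each group held 1 array, and the labels name no Hedgehog ligand or drug in either group. The study asked how miR-129-3p acts on cilium assembly through CP110 and actin.

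With 1 array per group there is no replicate error, no difference was tested, and each difference compares these 2 arrays only. Differences are given as miR-129-3p minus control on the scale log2(signal + 16), where signal is the deposited linear intensity; the added 16 understates differences of dim probe sets. As a measure of spread within the arrays, log2 differences of probe sets of the same gene had a pooled SD of 0.37 over 6179 genes, which does not hold the spread between cultures. As bulk RNA was measured, fewer expressing cells and less RNA per cell cannot be told apart. The median signal over all probe sets was 96.5 on the control array and 98.0 after miR-129-3p. Of 11 markers of retinal pigment epithelium with a probe set, 5 reached 100: OTX2 (1452 and 1625), MITF (2470 and 1020), MERTK (168 and 178) and the pigment gene PMEL (114 and 229) on both arrays, and TTR (91.0 and 109.6) on the miR-129-3p array alone. RPE65, RLBP1, BEST1, TYR, TYRP1 and SERPINF1 were under 100 on both.

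Hedgehog ligands are lipid-modified proteins whose release from the producing cell needs the membrane protein Dispatched (DISP1). On the receiving cell they bind Patched (PTCH1) together with co-receptors, among them CDON and BOC, while HHIP binds and sequesters them. Patched without ligand keeps Smoothened (SMO) inactive. Ligand binding lets SMO enter the primary cilium, and the GLI transcription factors are then released from their inhibitor SUFU. GLI2 is the main activator, GLI3 acts largely as a repressor in its cleaved form, and GLI1, PTCH1 and HHIP are themselves transcribed in response to the signal, which makes them common readouts of the pathway.

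The transfected agent is shown first because every difference described is a comparison with and without it; its seed is the stretch through which a microRNA mainly pairs with target messages. RefSeq on GRCh38.p14 lists 2 mature miR-129-3p forms, from chr7:128207920-128207941 and chr11:43581450-43581471, both on the plus strand, and the labels do not say which form the oligo copied. Capitals mark the seed, bases 2 to 8 from the 5′ end.
hsa-miR-129-1-3p: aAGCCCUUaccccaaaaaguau
hsa-miR-129-2-3p: aAGCCCUUaccccaaaaagcau
The 2 forms share the seed and differ by 1 substitution, U20C, counted from the 5′ end of the first form. A message that pairs with the whole seed holds the letters AAGGGCU. The transcripts of the 10 genes were not searched for it, since no transcript sequences were used here.

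On the brightest probe set of each gene, 5 of the 10 genes were higher by 1.5-fold or more after miR-129-3p (DISP1, CDON, GLI3, PTCH1 and BOC) and 2 were lower by as much (GLI2 and HHIP). SMO, SUFU and GLI1 lay between -0.11 and 0.015. Over all 12754 genes that reached a signal of 100 on either array, 17.3% were higher by that much and 10.8% lower. At 2-fold, 2 of the 10 were higher (DISP1 and CDON), beside 7.83% of all genes, and 2 were lower (GLI2 and HHIP), beside 4.56%. The median of the 10 differences was 0.46, against 0.030 over all genes. That value falls in the gap between SUFU (0.015) and BOC (0.90), where none of the 10 lies. The median was 0.065 when each gene was taken as the mean of all its probe sets. The 10 genes were chosen with results of these arrays known, so these counts describe them and support nothing further.

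Every one of the 10 genes had at least 1 probe set that reached a signal of 100 on either array, and 18 of the 28 probe sets reached it; all 18 also reached 100 on the dimmer array. Of these 18, 7 were higher by 1.5-fold or more and 5 lower, beside 16.7% and 11.1% of the 23707 named probe sets with such a signal, and 6 were neither. The other 10 probe sets, of PTCH1, CDON, SUFU and GLI3, had signals of 18.9 to 75.1 and differences from -0.13 to 0.44, and 0 of them passed 1.5-fold in either direction.

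**Figure D1:**
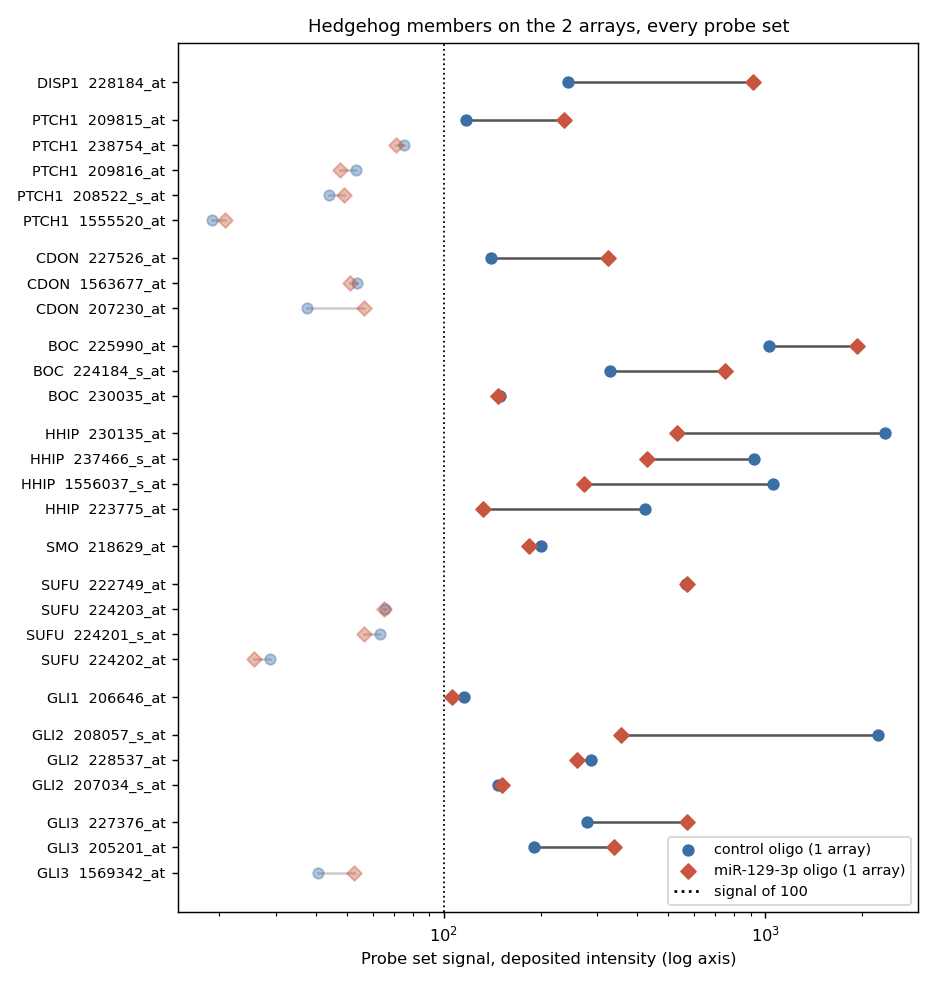
Signal of each of the 28 probe sets of the 10 Hedgehog genes on the control array (blue circles) and the miR-129-3p array (red diamonds), 1 array each, on a log axis, with pale symbols for probe sets under 100 on both arrays. The 4 HHIP probe sets all lie lower with miR-129-3p, whereas 1 of the 3 GLI2 probe sets does so by a wide margin and the other 2 hardly differ.

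DISP1, the transporter-like protein that frees the ligand from the cell that makes it, showed the largest positive difference of the 10. Its only probe set (228184_at) read 243 on the control array and 913 after miR-129-3p. The difference of 1.84, or 3.58-fold on this scale, was greater than that of 97.2% of genes with signal. It rests on 1 probe set, so no other part of the transcript checks it. The Hedgehog ligand genes themselves differed little: SHH read 117 and 111, IHH read 351 and 310, and DHH was under 100 on both arrays. The SHH signals lay near the median over all probe sets, 96.5 and 98.0, and reaching 100 does not by itself show that a gene was expressed.

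PTCH1, the receptor that holds SMO inactive and is itself a GLI target, was read by 5 probe sets, of which 1 had signal. That probe set (209815_at) read 117 on the control array and 237 after miR-129-3p, a difference of 0.92. The other 4 read between 18.9 and 75.1 on the 2 arrays and differed by -0.12 to 0.12. The higher PTCH1 signal therefore stands on a single dim probe set, and the mean over all 5 was 0.19.

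Promoters were searched for the consensus letters that GLI factors are known to bind, and the 1 match is printed because PTCH1 is a readout of those factors. The letters GACCACCCA were searched on both strands of the windows that RefSeq start sites define, from 250 bases before to 50 after a start. They occurred in 1 of 19 windows of 8 of the 10 genes (DISP1, PTCH1, CDON, BOC, HHIP, SMO, SUFU and GLI2), against 83 of 35116 windows over all genes (0.236%). The match lay 164 bases before 1 of the 5 listed PTCH1 starts, on GRCh38.p14 at chr9:95509420-95509448, minus strand, with the match, read on the opposite strand, in capitals.
PTCH1 promoter: gttgcctaccTGGGTGGTCtctctacttt
A match is a description of the letters and not a measured binding site, and no binding was measured in these cells. In the 111 windows of the wider lists described below, 0 held a match.

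CDON and BOC, immunoglobulin-domain co-receptors that bind the ligand beside PTCH1, both had higher signals with miR-129-3p. For CDON, the probe set with signal (227526_at) read 141 on the control array and 325 after miR-129-3p, a difference of 1.12. Its other probe sets were under 100 on both arrays: 207230_at read 37.6 and 56.5, and 1563677_at read 53.5 and 51.2. The mean over all 3 was 0.50, under the 1.5-fold limit.

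BOC had 3 probe sets with signal, and they did not move together. The first (225990_at) read 1027 on the control array and 1933 after miR-129-3p, a difference of 0.90, and the next (224184_s_at) read 330 and 747, a difference of 1.14. The third (230035_at) read 150 and 148, a difference of -0.017. The range of 1.16 between them is more than the median range of 0.44 over the 2802 genes with 3 or more probe sets with signal, and 10.3% of those genes had a range at least as wide.

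HHIP, the membrane-bound decoy that takes up Hedgehog ligand and is induced by the pathway, was lower with miR-129-3p on every one of its 4 probe sets. The probe set 230135_at read 2356 on the control array and 532 after miR-129-3p, a difference of -2.11, 4.33-fold on this scale. Probe set 1556037_s_at read 1057 and 273, a difference of -1.89. Probe set 223775_at read 422 and 132, a difference of -1.56. The smallest difference was that of 237466_s_at, which read 923 and 430 and differed by -1.07. All 4 control signals exceeded their miR-129-3p signal by more than 1.5-fold, with an SD of 0.45 among the 4 differences. The 4 agreed in direction but not closely in size: their range of 1.04 was wider than the median range of 0.44, and 12.8% of genes with 3 or more probe sets with signal had one at least as wide. Of the 1149 genes with 4 or more probe sets with signal, 3.74% were at least 1.5-fold lower on each of them.

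SMO, the transducer that PTCH1 restrains, and SUFU, the cytoplasmic inhibitor of GLI factors, differed little between the arrays. The only SMO probe set (218629_at) read 201 on the control array and 185 after miR-129-3p, a difference of -0.11. The SUFU probe set with signal (222749_at) read 566 and 572, a difference of 0.015. The other 3 SUFU probe sets lay under 100 on both arrays and differed by -0.13 to -0.0094. These differences are smaller than the spread among probe sets of a gene, which does not hold the spread between cultures. With 1 array per group, neither a change nor its absence could be shown for these genes.

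GLI1, the factor whose transcription most directly follows pathway activity, was read by 1 dim probe set (206646_at), at 115 on the control array and 106 after miR-129-3p. Its difference of -0.10 was below the pooled SD. On probe sets with signal the readouts went 3 ways: PTCH1 was higher on 1, HHIP lower on 4, and GLI1 nearly level on 1. The other 4 PTCH1 probe sets, all dimmer, differed by -0.12 to 0.12. Both GLI1 signals and the PTCH1 control signal of 117 lay near the medians over all probe sets, 96.5 and 98.0. Such signals do not by themselves show that a gene was expressed, so GLI1 cannot show a level readout. Whether pathway activity differed was not tested.

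GLI2, the main activator, gave the largest negative difference of the 10 and also the widest disagreement. Probe set 208057_s_at read 2239 on the control array and 355 after miR-129-3p, a difference of -2.61, 6.09-fold on this scale and below that of all but 0.321% of genes with signal. Probe set 228537_at read 287 and 260, a difference of -0.13, and 207034_s_at read 148 and 152, a difference of 0.034. Both of the latter had signal on both arrays, so the lower GLI2 call rests on 1 of 3 probe sets. The range of 2.64 was matched or exceeded by 28 of the 2802 genes with 3 or more probe sets with signal (0.999%). Suffix _s_at marks probe sets that can match several transcripts; GLI2 has 2 of these, and they stand at opposite ends of the range. Which transcript each one reads was not tested.

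GLI3, the factor that acts largely as a repressor, was higher on both of its probe sets with signal. Probe set 227376_at read 279 on the control array and 569 after miR-129-3p, a difference of 0.99, and 205201_at read 190 and 338, a difference of 0.78. The third (1569342_at) was under 100 on both arrays, at 40.5 and 52.6. The 2 differences were 0.21 apart, less than the pooled SD. Of the 6179 genes with 2 or more probe sets with signal, 9.61% were at least 1.5-fold higher on each of them.

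**Figure D2:**
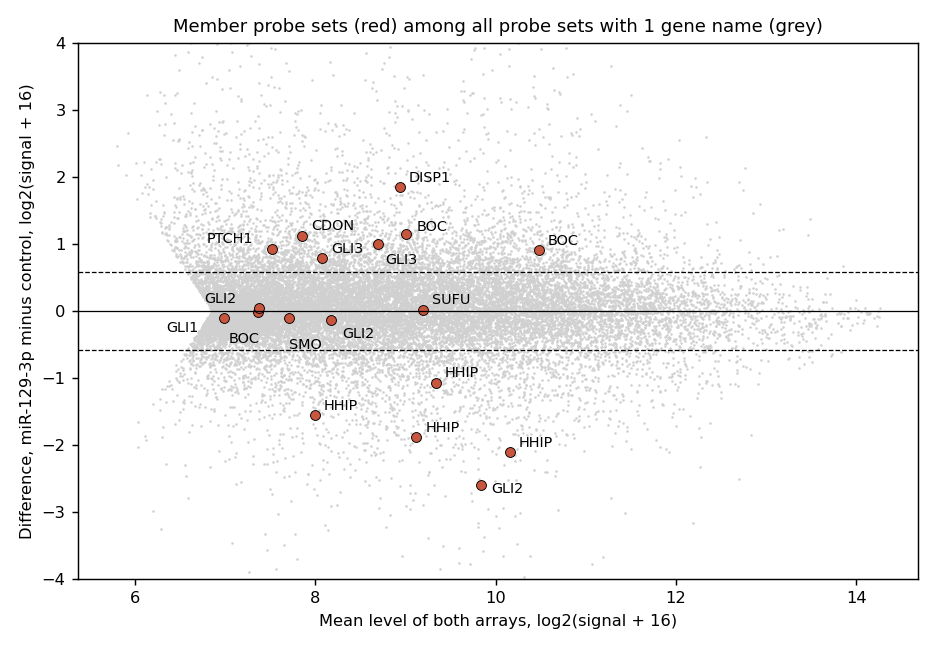
Difference between the arrays (vertical axis, log2) against the mean level (horizontal axis, log2) for the 18 Hedgehog probe sets with signal (red) over all named probe sets with signal (grey), with dashed lines at 1.5-fold and 78 grey points beyond the axis limits of 4 and -4. The HHIP probe sets form a group below the lower line, and the 3 GLI2 probe sets are split between -2.61 and 0.034.

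The wider pathway was followed with a list of 53 further genes, of which 49 had a named probe set and 41 had signal. Of the 41, 8 were higher by 1.5-fold or more, 2 lower and 31 neither, with a median of 0.10, shares close to or below the background over all genes given above. Among ligand-side genes, DISP2, a relative of DISP1, read 175 on the control array and 652 after miR-129-3p, a difference of 1.80 on its only probe set with signal. Of the 5 other receptor-side genes with a probe set, GPC6, a glypican, had signal (1339 and 1414), and GAS1, a further co-receptor, was under 100 on both arrays at 79.9 and 81.3.

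Among regulators of SMO and the GLI factors at the cilium, 2 of 10 genes with signal were at least 1.5-fold higher and 1 lower. With so few genes, these counts cannot be set apart from the 17.3% and 10.8% of all genes. EVC, a ciliary SMO-binding protein, read 857 on the control array and 1797 after miR-129-3p, a difference of 1.05, with 0.42 on its other probe set. EFCAB7, which anchors the EVC complex, read 257 and 577, a difference of 1.12. ARRB1, beta-arrestin 1, read 317 and 98.8, a difference of -1.54, but another of its 3 probe sets with signal stood at 0.12, and the probe set used reached 100 on the control array alone. KIF7, the ciliary kinesin that organises GLI at the cilium tip, differed by 0.31 and GPR161, a ciliary receptor that keeps protein kinase A active, by -0.20, with its 6 probe sets between -0.81 and -0.15.

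Of 13 genes on the list of kinases acting on GLI factors, 1 was higher by 1.5-fold or more and 1 lower. These counts are too small to set apart from the 17.3% and 10.8% of all genes. GSK3B, which phosphorylates GLI factors ahead of their processing, read 1441 on the control array and 845 after miR-129-3p, a difference of -0.76, and its 3 probe sets lay between -0.76 and -0.38. The catalytic subunits of protein kinase A, PRKACA and PRKACB, differed by -0.54 and -0.53, inside the limit. The higher kinase was CSNK1G1, at 0.76, with its 3 probe sets between 0.67 and 0.84. The median of the 13 kinases was 0.17. Of 11 ubiquitin ligase and other GLI regulator genes with signal, 4 were higher and 0 lower, a count too small to set apart from the 17.3% and 10.8% of all genes. BTRC, the F-box protein that marks GLI factors for processing, read 618 and 1139, a difference of 0.86, with its 3 probe sets between 0.10 and 0.86. ZIC1, a zinc finger factor related to GLI, read 29.8 and 307, a difference of 2.82; it entered the count through the miR-129-3p array alone, so its size depends on the constant added.

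Genes known as GLI targets in other cells went both ways, and the list does not sort them by whether GLI factors raise or lower them. Of 33 listed, 21 had signal, and 3 of these were at least 1.5-fold higher, 4 lower and 14 neither, beside 17.3% and 10.8% of all genes; the median was -0.16. With so few genes these counts are a description only. The higher genes were IGFBP6, an IGF-binding protein (1727 on the control array and 7504 after miR-129-3p), BMP4, a growth factor (254 and 793), and FOXL1, a forkhead factor (141 and 224). Their differences were 2.11, 1.58 and 0.62. The lower genes were CDK6, a G1 kinase (-1.98), GREM1, a BMP antagonist (-1.52), FOXM1, a mitotic forkhead factor (-1.37), and PAX6, an eye development factor (-0.66). CDK6 had 4 probe sets with signal between -2.05 and -0.58, and GREM1 stood at -1.94 on its other one. PAX6 stood at -0.53 on its other probe set with signal, inside the 1.5-fold limit. IGFBP6, BMP4, FOXL1 and FOXM1 had 1 probe set with signal each, so no other probe set with signal checks their differences. These genes answer to many pathways, and their relation to Hedgehog was not measured here.

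**Figure D3:**
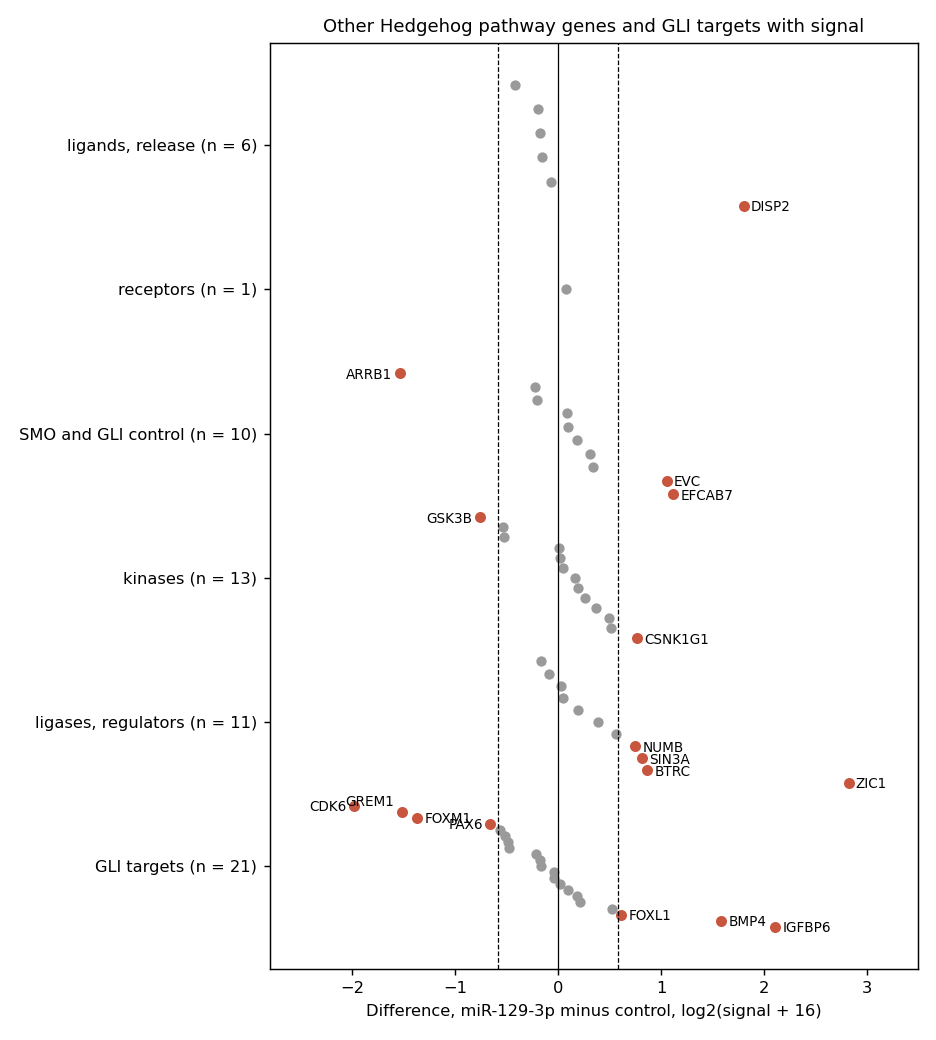
Difference between the arrays (log2, horizontal axis) for each gene of the wider Hedgehog list, by role, and of the GLI target list, 1 point per gene with signal, with red points and names beyond 1.5-fold (dashed lines). Of the 41 genes in the rows of the wider list 31 lie between the dashed lines, as do 14 of the 21 GLI targets.

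Other programmes differed between the same arrays, on which 17.3% of all genes with signal were at least 1.5-fold higher and 10.8% lower. All 7 measured genes of a short interferon list were higher, by 4.57 to 7.47. Of these, 4 (MX1, OAS1, RSAD2 and IFITM1) were under 100 in control, so their sizes depend on the constant added. All 8 mitotic genes were lower, by a median of -1.86. The sizes of 2 of them, under 100 after miR-129-3p, depend on the constant too. Of 5 SRF targets, 4 were lower, with a list median of -2.33, and the other was under 100 after miR-129-3p. Of 7 genes with signal that build the cilium, 1 was at least 1.5-fold higher (TMEM67, 1.02) and 0 lower. These are too few genes to set apart from the shares over all genes. Their median was 0.0076, against 0.030 over all genes. The part of these programmes in the Hedgehog values was not tested. Of blood cell markers, PTPRC, CD3E and CD14 were under 100 on both arrays, and HBB read 162 and 149.

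Under other processing choices the differences of 7 genes kept their side of the 1.5-fold limit in all 8 alternatives. Not every alternative could move a value. The floor of 100 changed none, since the probe set used for each gene read over 100 on both arrays. Leaving out _x_at and _s_at probe sets changed GLI2 alone. DISP1, SMO and GLI1 have 1 probe set each, so no choice among probe sets could move them. DISP1 ranged from 1.67 to 1.90, BOC from 0.68 to 0.91, GLI3 from 0.68 to 1.03 and HHIP from -2.17 to -1.66, while SMO, SUFU and GLI1 stayed within the limit, SUFU with both signs. The other 3, each with several probe sets, depended on the ones used. GLI2 went from -2.61 to -0.13 without probe sets ending in _x_at or _s_at and to -0.90 as a mean of its probe sets; PTCH1 and CDON went under the limit as a mean of theirs.

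**Figure D4:**
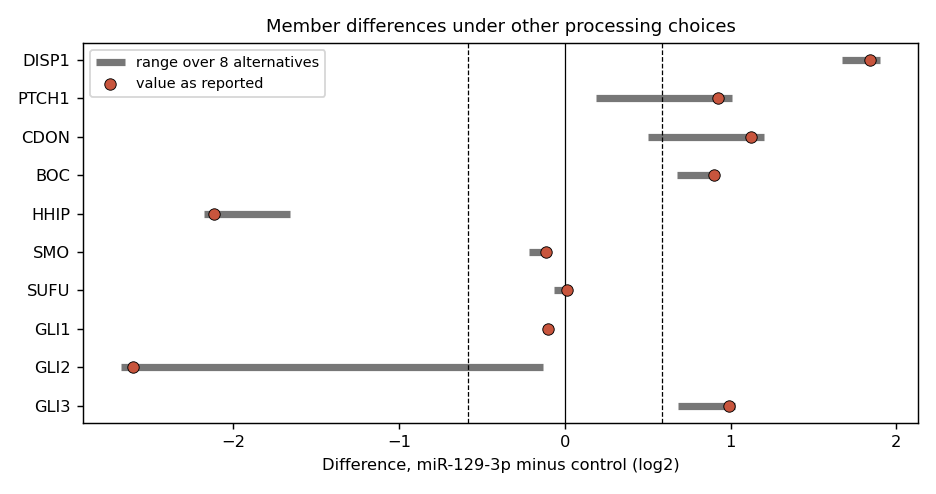
Difference of each of the 10 Hedgehog genes as reported (red points) and its range over 8 alternative processing choices (grey bars), on the log2 scale, with dashed lines at 1.5-fold. The bar of GLI2 runs from -2.68 to -0.13, whereas that of HHIP stays between -2.17 and -1.66.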

How the data were processed

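The authors deposited a linear intensity for each of 54613 probe sets on 2 Affymetrix arrays. Per the submitters' processing notes MAS5 and RMA were used; which of them gave these intensities, their versions and the scaling between arrays are not given in the sources used here. If low signals were compressed upstream, differences of dim probe sets would be affected.

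A platform annotation gave 41091 probe sets 1 gene symbol; symbols were updated through Entrez IDs, 41037 of them matched in the GRCh38.p14 gene table. Differences were taken on log2(signal + 16), and a gene was its probe set with the highest mean level. A filter kept features with a signal of 100 or more on either array, and 1.5-fold was the limit of the counts. No test was made.

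The members and the gene lists were chosen with earlier results of these data known. The rule names all 10 members, and of each list up to 5 genes at each end past 1.5-fold, and GAS1 whatever its value. Other list genes named (ligands, KIF7, GPR161, GPC6, PRKACA, PRKACB, CSNK1G1, TMEM67, interferon genes and markers) were picked after their values were seen. A comparison of protein sequences was planned and not run. Code was tested on simulated data. Values were computed with pandas 2.3.3 and numpy 2.4.6 in Python 3.11.15, the loess trend with statsmodels 0.14.6 and figures with matplotlib 3.10.9.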

Additional observations from a re-analysis of the deposited data

How the results depend on the processing

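Other scalings tried were median centring, a loess trend on level and quantile scaling. Added constants of 64 and 1, no filter, a filter of 200, and fold limits of 2 and 3 were also tried. So were the mean of all probe sets, leaving out _x_at and _s_at probe sets, and a floor of 100. Under the 3 scalings, the median change in the difference of a probe set lay between -0.019 and 0.022. No member past 1.5-fold changed sign. Fold limits of 2 and 3 left 3 and 1 of the 7 higher member probe sets, 2 and 1 of the 5 higher member genes, 4 and 2 of the 8 higher and 1 and 0 of the 2 lower wider pathway genes; the limit of 3 left 3 lower member probe sets, and 1 higher and 1 lower GLI target. With the mean of all probe sets, 3 member genes were higher, the member median was 0.065, and 5 wider pathway genes were higher and 0 lower. Without _x_at and _s_at probe sets 1 member gene and 1 wider pathway gene were lower. With the filter of 200 the member median was 0.90, since GLI1 (115 and 106) left and BOC became the middle gene. Quantile scaling gave 4 lower wider pathway genes. All other counts and medians, 97 of 116 values, stayed within 1.5-fold of the reported count or within 0.37 of the reported median. Some of these could not move, as with the floor of 100, which left every member value as it was. The number of arrays limits the precision of every value.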

Other observations

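Among the marker genes of the cell line, MITF, the transcription factor that directs pigment cell programmes, read 2470 on the control array and 1020 after miR-129-3p. It differed by -1.26 (log2), and by -0.77 on its other probe set with signal. PMEL, a pigment granule protein on the same list, went the other way, at 114 and 229, a difference of 0.92, so that of the 5 markers with signal 1 was at least 1.5-fold higher and 1 lower. OTX2, a homeobox factor of the same lineage, read 1452 and 1625 and differed by 0.14 to 0.16 on its 2 probe sets. KRT18, a keratin of simple epithelia, was lower, at 5787 and 2972, a difference of -0.96. On the same epithelial list KRT8 (-0.32) and CDH1 (-0.17) stayed within the 1.5-fold limit, and EPCAM was under 100 on both arrays. SYT1, a synaptic vesicle calcium sensor on the list of neuronal markers, read 1313 and 2359 and was higher on both of its probe sets, by 0.84 and 0.99. These values come from 1 array per group and were not tested.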
